A study of Mus musculus with 42 samples.

Results

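The comparison described here was that of basal tibialis anterior (TA) muscle from Sesn2SkM-Tg mice with basal TA muscle from WT mice, over all genes. Its members were the 8 libraries that the labels give as Sesn2 transgenic or wild type in the basal state of set 1, 4 per genotype, of 42 in the series. The series is RNAseq of mouse TA muscle in the basal state, after limb immobilization or after denervation, from WT mice and mice with more or less Sesn1 or Sesn2. Mice of both genotypes were C57BL/6J males of 4 months by the labels, and these muscles were neither immobilized nor denervated. Sesn2SkM-Tg mice carry human Sesn2 under a Tet-regulated promoter together with a tTA construct driven by the MCK promoter, which is active in striated muscle. The authors used littermates without transgene as controls of each transgenic line. The Sesn1 and Sesn2 transgenic lines share the basal WT libraries of set 1, and the labels do not say which line these come from. Transgenic muscle differed from control muscle in both constructs. An effect of tTA or of the line cannot be told apart from one of Sesn2. The deposited values, called normalized counts below, are on a linear scale close to that of CPM. The number of reads is unknown. Summed over all genes, a Sesn2SkM-Tg library held 1068495 to 1276769 and a WT library 1064363 to 1159418 of them.

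Sestrins are stress-inducible proteins that bind the GATOR2 complex and thereby restrain mTORC1 when leucine is low, and they are linked to AMPK activity and to antioxidant defence. The family in mice is Sesn1, Sesn2 and Sesn3. mTORC1 drives protein synthesis, AMPK is the energy sensor that favours catabolism, and AKT and FoxO factors set the balance of growth and proteolysis in muscle.

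Basal Sesn2SkM-Tg muscle had higher Sesn2, Gstm5, St3gal1, Nnt and Tead4 and lower Dkk3, Pfkfb3, Pdk4, Pdp1, Ctxn3, Actc1 and Myl4 than WT muscle. Of 13705 genes tested, 343 (2.50%) were called, which required a log2 fold change of 0.25 or more in size and an adjusted p below 0.05 (limma, Benjamini-Hochberg). Of these, 206 were higher (1.50% of the genes tested) and 137 lower (1.00%) in Sesn2SkM-Tg muscle. Most differences were moderate: 125 of the 343 reached an absolute log2 fold change of 1, 62 of them higher and 63 lower, and 13 reached 2. The value ranges of the genotypes did not overlap for 305 of the called genes, against 8.23% of all genes tested. Calls were chosen from these same libraries, so the rare overlap among them follows in part from that choice. By the annotation, 309 of the called genes code for protein, 12 are lincRNAs and 9 are processed pseudogenes.

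The number of calls depended on single libraries. With 1 library left out, it was 156 without Sesn2SkM-Tg replicate 2, 167 without WT replicate 1, 180 without WT replicate 2, 198 without WT replicate 3 and 1027 without WT replicate 4, and between 230 and 315 without the other Sesn2SkM-Tg replicates. Sesn2SkM-Tg replicate 2 and WT replicate 4 stood apart from the other libraries of their group. They correlated with those at no more than 0.971 and 0.966 on the log2 scale, while the other 6 libraries correlated within their groups at 0.981 to 0.991, and their deviations from the group means correlated with each other across genes (r = 0.58). In both of them short and GC-rich genes were high. The median deviation of the shortest quartile of genes was 0.24 in Sesn2SkM-Tg replicate 2 and 0.06 in WT replicate 4, and that of the longest quartile was -0.29 and -0.15 (log2, against the mean of set 1). In the other WT libraries these medians were -0.21 to -0.16 and 0.15 to 0.19, and in the other Sesn2SkM-Tg libraries -0.08 to 0.02 and 0.03 to 0.14. Genes called higher in Sesn2SkM-Tg muscle were also shorter than the genes tested, with a median of 2780 exon bases against 4350, and richer in GC, with 55.4% against 49.7%. Genes called lower were close to all genes, with 4370 exon bases and 49.2% GC. The part of this shift in the calls was not tested beyond the following fits. Without both libraries 448 genes were called, 314 of them higher, and 252 were shared with the 343. With each library corrected for GC content and exon length 382 were called, 201 of them higher, and 270 were shared.

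**Figure D1:**
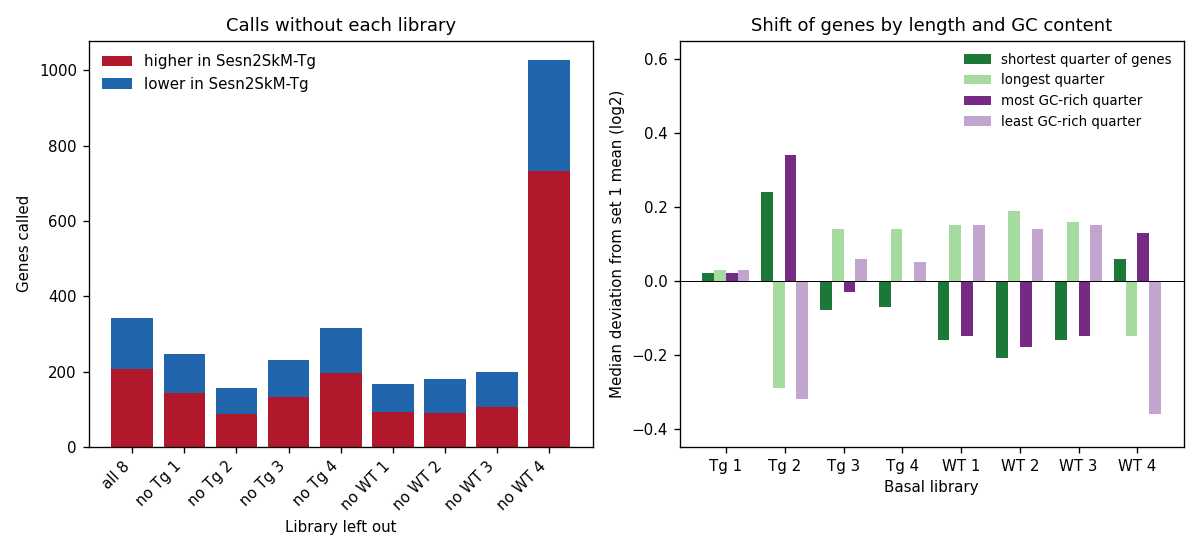
Left, number of genes called higher (red) or lower (blue) in basal Sesn2SkM-Tg (Tg) against basal WT muscle with all 8 libraries and without each library in turn. Right, median deviation from the mean of set 1 (log2) of the shortest and longest quartile of genes by exon bases and of the most and least GC-rich quartile, for each basal library. The count ran from 156 without Tg 2 to 1027 without WT 4, and these libraries had the most negative medians of the longest and the least GC-rich quartile.

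A set of 119 genes, 69 higher and 50 lower, was called with all libraries, without any 1 of the 8, without both libraries that stood apart and after the correction for GC content and length. They make up 34.7% of the calls, and 83 of them changed by a log2 fold change of 1 or more in size. They are called stable below, which says only that they passed these fits. When the other groups of set 1 were kept out of the model, 75 of the 119 were called.

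The transgene was read as higher Sesn2 in each library. Sesn2 (chromosome 4 of GRCm38, 132492032 to 132510501) had 6.54, 10.9, 12.6 and 13.0 normalized counts in the Sesn2SkM-Tg libraries and 2.46, 2.50, 3.39 and 2.18 in the WT libraries. The lowest transgenic library, replicate 1, was still above the highest WT library. The log2 fold change was 1.66 (standard error 0.20, 95% confidence interval 1.25 to 2.08, limma adjusted p = 7.3e-05 by Benjamini-Hochberg), a ratio of means of 4.09. Reads were assigned to the mouse transcriptome, so these values do not tell human from mouse Sesn2 and may understate the human transcript. Sesn3 had 1.82, 0.768, 2.51 and 2.30 in Sesn2SkM-Tg and 4.72, 5.32, 9.37 and 3.34 in WT muscle, without overlap. It was lower by a log2 fold change of -1.21 (standard error 0.27, limma adjusted p = 0.016), and lost its call in 2 of 8 fits without 1 library. Sesn1 had 11.7, 7.0, 12.1 and 11.8 against 20.6, 22.1, 16.4 and 15, also without overlap, but its log2 fold change of -0.76 missed the threshold (limma adjusted p = 0.074).

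Among the 47 tested genes of the sestrins and of the GATOR, Rag and mTORC1 machinery, 3 were called higher and 2 lower, and the median log2 fold change was 0.01, against 0.02 over all genes. Beside Sesn2 and Sesn3 these were Ddit4 (REDD1, a stress-induced inhibitor of mTORC1), Eif4ebp1 (4E-BP1, the translation repressor that mTORC1 phosphorylates) and Gatsl2 (a relative of the arginine sensor CASTOR1). Gatsl2 had 72.9, 48.5, 68.9 and 72.3 in Sesn2SkM-Tg and 134, 136, 117 and 155 in WT muscle. It was lower in each transgenic library (log2 fold change -1.05, standard error 0.17, limma adjusted p = 9.5e-04) and is a stable call. Ddit4 had 7.81, 9.42, 20.6 and 7.97 against 2.83, 2.19, 6.42 and 4.28 (log2 fold change 1.3, adjusted p = 0.039), called in 4 of 8 fits without 1 library. Eif4ebp1 had 44.6, 61.3, 51.6 and 35.1 against 29.2, 28.5, 22.9 and 27.9 (0.78, adjusted p = 0.027), called in 2 of 8. The values of Mtor itself were 51.5 to 63.5 against 47.4 to 75.0 (log2 fold change 0.05), and those of Rptor, the mTORC1 scaffold, were 50.8 to 56.4 against 46.9 to 58.1 (0.07).

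Of the 13 AMPK subunits and kinases, 0 were called higher and 1 lower, Prkag3, the gamma subunit of glycolytic muscle. Its values were 77.0, 47.5, 84.4 and 63.8 against 168, 158, 97.6 and 113, with every transgenic library below every WT library (log2 fold change -0.96, adjusted p = 0.025 from limma). It kept its call in 4 of 8 fits without 1 library. Of 31 genes of insulin, IGF, AKT and FoxO signalling, Akt1 (0.64) and Foxo6 (1.00) were called higher, and neither is a stable call. Of 28 atrophy ubiquitin ligases and FoxO targets, Eif4ebp1 was called higher, in only 2 of 8 fits without 1 library, and Tmem140 lower (-1.18, adjusted p = 0.003). Of these 28 genes 23 were below 0, with a median of -0.24, which was -0.13 without Sesn2SkM-Tg replicate 2. At an unadjusted p under 0.05, 8 of them were lower, against 6.01% of all genes. The summed value of the list was 3160, 2660, 3130 and 3170 in Sesn2SkM-Tg and 4550, 4100, 3430 and 3310 in WT libraries, so the groups did not overlap. Fbxo32 (atrogin-1), the muscle ubiquitin ligase induced by FoxO factors, had 339, 141, 265 and 310 against 878, 668, 336 and 201, and the ranges overlapped (-0.83, adjusted p = 0.21). Trim63 (MuRF1) had 138 to 218 against 179 to 309 (-0.30, adjusted p = 0.67). Of the 45 autophagy and mitophagy genes 0 were called, 7 had an unadjusted p under 0.05 (15.6% of all genes did), and the median was -0.08.

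Genes of fuel use held some of the largest decreases. Pfkfb3, which makes the fructose-2,6-bisphosphate that stimulates glycolysis (chromosome 2, 11471433 to 11554077), had 53.3, 36.2, 52.7 and 57.2 normalized counts in Sesn2SkM-Tg muscle and 512, 489, 347 and 236 in WT muscle. WT values spread widely, yet the lowest lay above the highest transgenic value. The log2 fold change was -2.92 (standard error 0.29, limma adjusted p = 5.7e-06), a stable call. Pdk4, the kinase that shuts pyruvate dehydrogenase during fasting (chromosome 6, 5483351 to 5496309), had 189, 206, 122 and 372 against 1060, 707, 1080 and 1040. Here too the groups did not overlap (-2.22, standard error 0.29, adjusted p = 1.5e-04). Pdp1, the phosphatase that opposes this kinase, was lower as well, with 48.6, 22.2, 38.9 and 43.9 against 108, 111, 105 and 117 (-1.55, standard error 0.24, adjusted p = 7.2e-04). Txnip, an inhibitor of glucose uptake and of thioredoxin, had 430, 403, 395 and 346 against 633, 692, 767 and 986 (-0.95, adjusted p = 0.0072). Fbp2, muscle fructose-1,6-bisphosphatase, was higher (0.94, adjusted p = 0.021), though not stably. Pdp1 and Txnip were singled out among the stable calls after their values were seen. The lists around them moved little: of 47 genes of glucose uptake, glycolysis and glycogen, 1 was called higher and 1 lower (median 0.07), and of 51 genes of fatty acid uptake and oxidation, only Pdk4 was called (median -0.05).

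The subunits of oxidative phosphorylation were the list whose members were most often above 0. Of 78 nuclear subunits, 77 had a positive log2 fold change, the median was 0.43, and 42 had an unadjusted p under 0.05 in the higher direction, against 9.57% of all genes. Only 4 were called, Cox8a (0.86), Cox8b (0.91), Ndufa1 (0.65) and Ndufa5 (0.72), none of them stably. The muscle isoform Cox8b of cytochrome c oxidase had 423, 697, 360 and 393 in Sesn2SkM-Tg and 192, 197, 258 and 337 in WT muscle. The summed value of the list was 31400, 44700, 27100 and 28900 in Sesn2SkM-Tg and 19700, 21500, 25600 and 37500 in WT libraries, so it overlapped, and the libraries that stood apart, Sesn2SkM-Tg replicate 2 and WT replicate 4, were the highest of their groups. The median was 0.25 without the former, 0.62 without the latter, 0.45 without both, with 18 members called higher, and 0.33 after the correction for GC content and length. The 15 mitochondrially encoded genes had 0 calls and a median of 0.15, and -0.03 without both libraries. Of 45 proteasome subunits 42 were above 0, with a median of 0.22 and 1 call, Adrm1 (0.44), which is not stable. The median was 0.14 without Sesn2SkM-Tg replicate 2 and 0.17 after the correction for GC content and length.

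Nnt is the inner membrane transhydrogenase that makes mitochondrial NADPH, and the C57BL/6J strain is known to carry a deletion in it. It had 80.7, 77.5, 80.3 and 82.1 normalized counts in Sesn2SkM-Tg muscle and 18.8, 20.2, 26.7 and 47.4 in WT muscle (chromosome 13, 119335448 to 119408997). The transgenic libraries were nearly equal, whereas WT replicate 4 was above the other WT libraries (log2 fold change 1.57, standard error 0.29, limma adjusted p = 0.0037). In the immobilized muscles, which are other libraries, it had 65.1, 39.8, 20 and 53.6 in Sesn2SkM-Tg and 14.6, 16.7 and 13.3 in WT mice, and replicate 3 was the low one. In basal Sesn1SkM-Tg muscle it had 20.1, 18.7, 16.0 and 29.5. Which Nnt allele each mouse carried was not tested.

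Gstm5, a glutathione S-transferase, had normalized counts of 268, 326, 180 and 86.1 against 44.1, 43.8, 38.8 and 58.5 (chromosome 3, 107895821 to 107898686). Replicate 4 of the transgenic libraries was much nearer the WT values than the others, and all of them were above WT (log2 fold change 2.04, standard error 0.38, limma adjusted p = 0.0042, called in 8 of 8 fits without 1 library). Basal Sesn1SkM-Tg muscle had 43.3, 40.6, 48.1 and 48.4. In contrast Gstm2 from the same cluster was lower, with 29.7, 23.7, 14.7 and 18.1 against 43.4, 35.8, 28.3 and 49.4 (-0.85, adjusted p = 0.014), and reads of these similar genes may be shared between them. Among 56 antioxidant and glutathione enzymes, 2 were called higher, Gstm5 and the NRF2 inhibitor Keap1 (0.49), and 3 lower, Gstm2, the quinone reductase Nqo1 (-0.73) and Gpx3. Keap1, Gstm2 and Nqo1 are not stable calls. Gstm2, with an overlap of the groups, was called in 6 and Nqo1 in 4 of 8 fits without 1 library. Gpx3, the secreted glutathione peroxidase, had 68.9, 115, 48.2 and 47.2 against 167, 184, 176 and 129 (-1.3, standard error 0.23, adjusted p = 0.0026) and is a stable call. The median of the list was 0.08. Slc40a1 (ferroportin), the iron exporter, which was singled out after its values were seen, had 26.3, 21.1, 23.5 and 25.7 against 56.1, 67.0, 61.5 and 65 (-1.34, adjusted p = 1.4e-04).

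**Figure D2:**
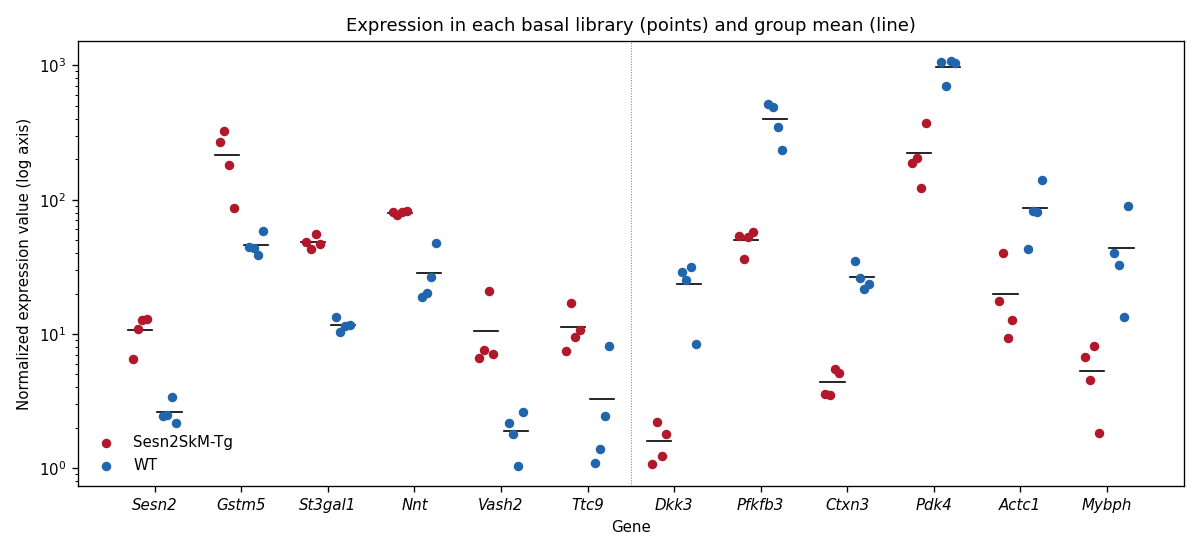
Normalized expression value (log axis) of 12 genes in each of the 4 basal Sesn2SkM-Tg (red) and 4 basal WT (blue) libraries, with the group mean as a line. In the left 6 genes the transgenic mean is the higher, in the right 6 the lower, and the ranges overlap in Ttc9 only.

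Dkk3, a secreted member of the Dickkopf family of Wnt modulators, had the largest decrease of a protein coding gene. It had 1.08, 2.23, 1.23 and 1.80 in Sesn2SkM-Tg muscle and 29.1, 25.4, 31.4 and 8.47 in WT muscle (chromosome 7, 112116017 to 112159057), a ratio of means of 14.9. WT replicate 4 was well below the other WT libraries and still above each transgenic one (log2 fold change -3.13, standard error 0.34, limma adjusted p = 2.2e-05). No other of the 37 Wnt ligands, receptors and antagonists was called, and their median was -0.04.

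Genes of the developing or cardiac sarcomere were also among the decreases. Mybph (myosin binding protein H) had 6.77, 4.54, 8.07 and 1.82 against 39.9, 32.6, 13.3 and 89.8 (-2.66, standard error 0.55, limma adjusted p = 0.0095). Its WT values spread over a range of several fold, and its adjusted p was 0.05 without both libraries that stood apart. Actc1, cardiac alpha-actin, had 17.7, 40.0, 9.33 and 12.7 against 43.0, 82.2, 80.9 and 141 (-2.16, adjusted p = 0.0058), and Myl4, the embryonic and atrial myosin light chain, had 1.68, 4.11, 1.43 and 2.23 against 25.9, 6.4, 15.2 and 8.78 (-2.05, adjusted p = 6.5e-04). Both are stable calls without overlap of the groups. Of the 20 developmental sarcomere and regeneration genes 2 were called lower, Mybph and Myl4, and 2 higher, Dysf (0.62), which reseals the membrane, and Myod1 (1.13), the myogenic factor. Dysf was called in 1 and Myod1 in 3 of 8 fits without 1 library, and 0 members of the list were called higher without both libraries that stood apart. Embryonic Myh3 (-1.03, adjusted p = 0.43) and neonatal Myh8 (0.91, adjusted p = 0.13) were not called.

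Of 18 slow and cardiac fiber genes, Actc1 and the slow calcium pump Atp2a2 (-0.58) were called lower, and Atp2a2 in only 1 of 8 fits without 1 library. With the replicate block its adjusted p was 0.058. Of the list 9 of 18 were above 0, with a median of 0 and a summed value of 3470 to 4400 in Sesn2SkM-Tg against 2530 to 3840 in WT libraries. Its highest log2 fold change was that of the slow myosin light chain Myl3, with 169, 326, 55.0 and 184 against 15.9, 16.9, 64.9 and 115 (1.99, adjusted p = 0.095). Of 18 fast fiber genes 0 were called (1 at an unadjusted p under 0.05). The fast myosins varied among the WT libraries. Myh2, of type 2A fibers, had 248 and 216 in WT replicates 1 and 2 but 1800 and 2130 in replicates 3 and 4, and Sesn2SkM-Tg muscle had 1310, 2120, 318 and 1590. Myh1, of type 2X fibers, had 5080, 9640, 18900 and 27400 in WT muscle and 13700 to 19600 in Sesn2SkM-Tg muscle. The part of this spread in other genes was not tested.

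Genes of hormone and stress responses were divided. Of 19 glucocorticoid response genes 4 were called higher, Cebpb (0.96), Cebpd (1.10), Ddit4 and Per1, and 1 lower, Pdk4, with a median of 0.22. None of the 4 higher calls is stable, and Cebpd and Ddit4 were each called in 4 of 8 fits without 1 library. Without both libraries that stood apart 2 were higher and 1 lower, with a median of 0.05 (0.13 without WT replicate 4 alone), and after the correction for GC content and length 1 was higher, Cebpd, and 2 lower, Pdk4 and Klf15. Per1, a period gene of the circadian clock, had 44.5, 66.6, 84.5 and 37.7 against 15.3, 17.1, 27.8 and 32.8 (1.29, adjusted p = 0.040), called in 2 of 8 fits without 1 library. The glucocorticoid targets Fkbp5 (0.58, adjusted p = 0.29), Tsc22d3 (-0.50, adjusted p = 0.18) and Klf15 (-0.86, adjusted p = 0.060) were not called. Of the 22 clock genes Per1 was the only one called, and the core clock gene Arntl had 11.6, 11.4, 8.46 and 15.8 against 36.4, 21.6, 10 and 9.26. Among 28 early response genes, 26 were above 0 (median 0.41, or 0.27 after the correction for GC content and length) and Jund was called, with 12.4, 24.1, 15.7 and 11.7 against 5.20, 5.25, 5.52 and 7.94 (1.25, standard error 0.22, limma adjusted p = 0.0026). Fos (1.36, adjusted p = 0.29) was 1.31 to 26.5 against 1.12 to 3.51. Of 36 heat shock and unfolded protein response genes 0 were called, with 5 at an unadjusted p under 0.05, and of 23 p53 targets Sesn2 was called higher and Plk2 (-0.82) lower. Plk2 was called in 4 of 8 fits without 1 library.

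Further genes with large increases come from varied families. St3gal1, a sialyltransferase, had 48.4, 43.2, 55.9 and 46.9 against 13.3, 10.4, 11.5 and 11.7, with little spread in either group (1.96, standard error 0.27, limma adjusted p = 2.1e-04). Prkcz, an atypical protein kinase C, had 7.32, 9.39, 8.41 and 7.81 against 2.19, 1.94, 2.32 and 2.53 (1.51, adjusted p = 1.2e-04). Tead4, the TEA domain factor of myoblasts, had 13.3, 16.1, 20.7 and 22.9 against 4.65, 7.91, 5.07 and 4.52 (1.56, adjusted p = 0.0022). Prkcz and Tead4 were singled out after their values were seen, and all of these are stable calls. The tubulin carboxypeptidase Vash2 (1.87), the methyltransferase gene Mettl21e (1.77), Otog (1.73) and Ttc9 (1.73) were stable calls too, Ttc9 with an overlap of the groups. The transcripts D430019H16Rik (2.46, 3.07 to 6.77 against 0.0448 to 0.167) and AA465934 (1.79, 2.86 to 4.45 against 0.166 to 0.308) were almost confined to Sesn2SkM-Tg among these 8 libraries, and for values under 1 the log2 scale with 1 added understates the change. Gm10231 (2.62) and Gm4737 (1.61) were called in 4 and 3 of 8 fits without 1 library, so they are not stable. Among the decreases, Ctxn3, which encodes a small membrane protein, had 3.60, 3.52, 5.48 and 5.11 against 35.2, 26.1, 21.8 and 23.7 (-2.35, standard error 0.20, adjusted p = 5.2e-07). The small GTPase Rasd2 (-2.04, 5.46 to 11.4 against 24.5 to 43.0) and the serine protease Htra4 (-1.84, 0.0697 to 0.642 against 1.54 to 6.66) were stable calls as well. The pseudogenes Gm10221 (-3.49) and Rpl30-ps9 (-2.61), each called in 2 of 8 fits, can take reads of their parent genes.

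Markers of other cell types were mostly not called. Of the satellite cell (10 tested), endothelial (15), macrophage and leukocyte (20), fibro-adipogenic (14), smooth muscle and pericyte (11), Schwann cell (12), erythroid (8) and skin (3) lists 0 members were called, with medians between -0.15 and 0.22. The adipocyte list had a median of -0.59 over 13 genes and 1 call, Scd1, a fatty acid desaturase that muscle also expresses. Scd1 had 17.6, 9.61, 7.16 and 12.9 against 106, 28.7, 34.0 and 33.4 (-1.85, adjusted p = 0.036), and was called in 3 of 8 fits without 1 library. WT replicate 1, its highest library, was also the highest in the fat cell genes Adipoq (9.08, against 1.01 to 2.60 in the other WT and 0.223 to 1.34 in the transgenic libraries) and Cfd (21.3, against 2.11 to 8.25 and 1.21 to 2.70). The summed value of the adipocyte list was 757 to 1320 in Sesn2SkM-Tg and 1310 to 2870 in WT libraries, and its part in the value of Scd1 was not tested. The tendon list had a median of -0.54 over 10 genes, -0.91 without WT replicate 4 and -1.04 without both libraries that stood apart, and 1 call, Thbs4, an extracellular matrix protein of tendon and muscle, which had 21.7, 35.0, 14.6 and 49.6 against 97.0, 54.4, 86.3 and 76.5 (-1.46, adjusted p = 0.0092). Its summed value was 30 to 105 in Sesn2SkM-Tg and 80.0 to 204 in WT libraries, and the tendon gene Tnmd was at 0.487 to 2.03 against 0.679 to 4.86. Their part in the values of Thbs4 and of Cilp (-1.61, adjusted p = 0.047), the other gene called among 49 collagens and matrix genes, was not tested. Cilp was called in 3 of 8 fits without 1 library. In whole muscle, fewer cells of a type and less RNA per cell cannot be told apart. Over all lists 38 of 837 tested genes were called (4.54%, against 2.50% of all genes), 19 in each direction, and 12 of the 38 are stable. The lists were chosen with earlier results of these data known, and they hold Sesn2, Gstm5, Dkk3, Pfkfb3 and Mybph. The gap to the share of all genes therefore cannot be read as a result about the lists.

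**Figure D3:**
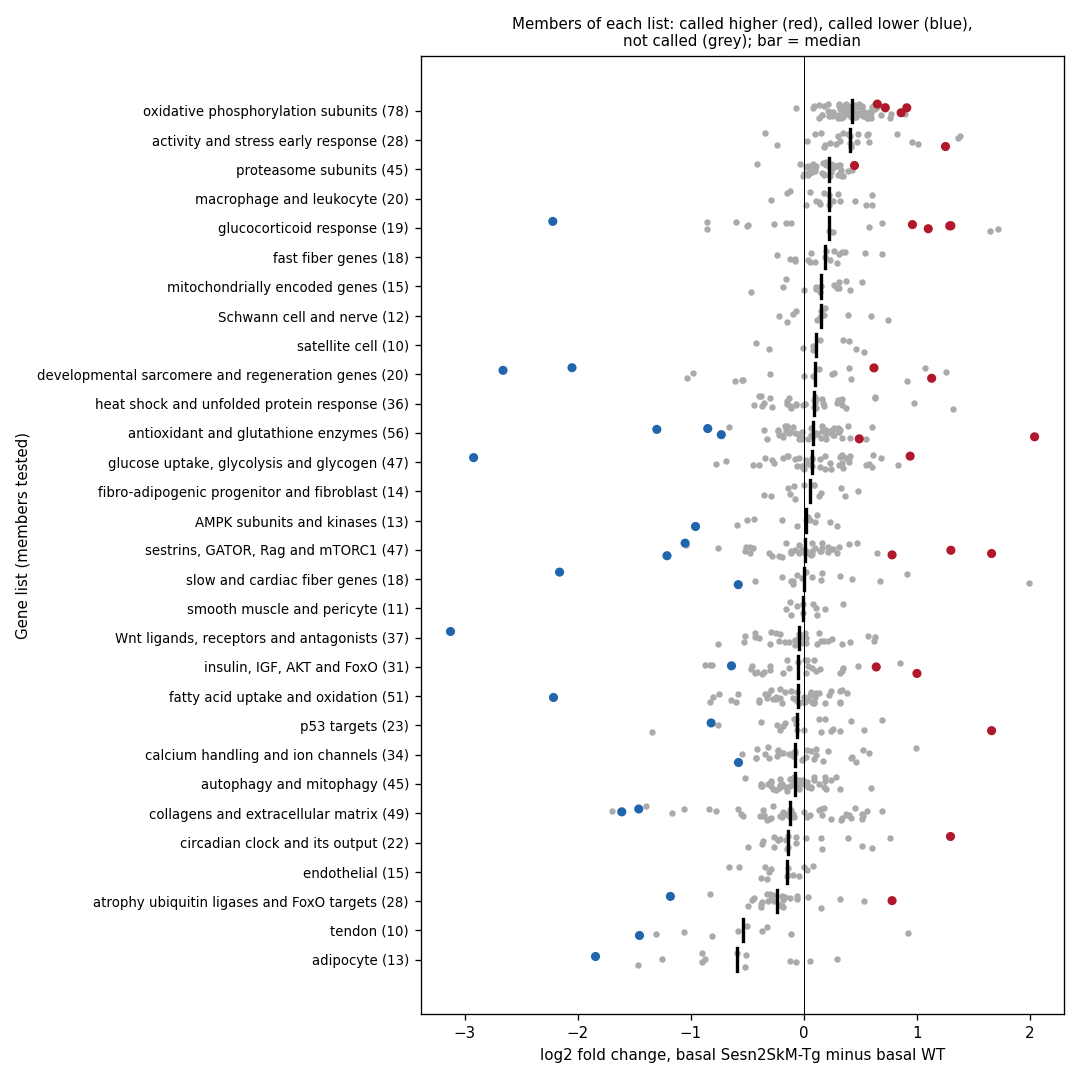
Log2 fold change (basal Sesn2SkM-Tg minus basal WT) of each tested member of the lists with 10 or more tested members, with members called higher in red, called lower in blue and not called in grey, and the median as a bar. Medians run from -0.59 for the adipocyte to 0.43 for the oxidative phosphorylation list, and few members of any list were called.

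The same contrast in immobilized muscle rests on other mice, 4 Sesn2SkM-Tg and 3 WT libraries, and called 403 genes (2.94%; 226 higher, 1.65%, and 177 lower, 1.29%). With 1 library left out this number lay between 110, without WT immobilized replicate 3, and 314. Of the 343 genes called in basal muscle, 317 (92.4%) had the same direction there, 194 of the higher and 123 of the lower, against 65.8% of all genes tested. In both states 90 genes were called, 26.2% of the basal and 22.3% of the immobilized calls, with 49 higher in both, 40 lower in both and 1, Cbr2, in opposite directions. Of the 119 stable genes, 107 had the same direction and 37 were called in immobilized muscle, among them Sesn2 (1.86), Dkk3 (-1.54), Pfkfb3 (-1.14), Ctxn3 (-1.75), Actc1 (-1.79), Nnt (1.41), St3gal1 (1.32), Prkcz (1.46), Pdp1 (-1.40), Slc40a1 (-1.29) and Gatsl2 (-1.36). Pdk4 (-0.29, adjusted p = 0.66), Txnip (0.35, adjusted p = 0.36), Mettl21e (0.01, adjusted p = 0.99) and Tmem140 (0.55, adjusted p = 0.19) were not called there. In the test of the difference between the states they did not pass either, Pdk4 with a difference of 1.93 (limma adjusted p = 0.13), Mettl21e with -1.75 (adjusted p = 0.11) and Tmem140 with 1.73 (adjusted p = 0.093). That test called 1 gene of 13705 (0.00730%; 1008, or 7.35%, at an unadjusted p under 0.05), Cbr2, which kept this call in 10 of 15 fits without 1 library and not with the replicate block (adjusted p = 0.064). Immobilized Sesn2SkM-Tg muscles were uneven in some genes that separated the basal groups well. Gstm5 had 49.6, 176, 171 and 45.6, St3gal1 had 25.4, 67.2, 40.1 and 15.6, and D430019H16Rik had 0.351, 4.16, 1.13 and 0.0392, so replicates 2 and 3 were the high ones for each. Sesn2 was more even, with 13.6, 14.5, 11.8 and 8.01. So were AA465934, with 2.21, 1.72, 2.82 and 1.93, and Gatsl2, with 56, 50.1, 49.1 and 54.

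**Figure D4:**
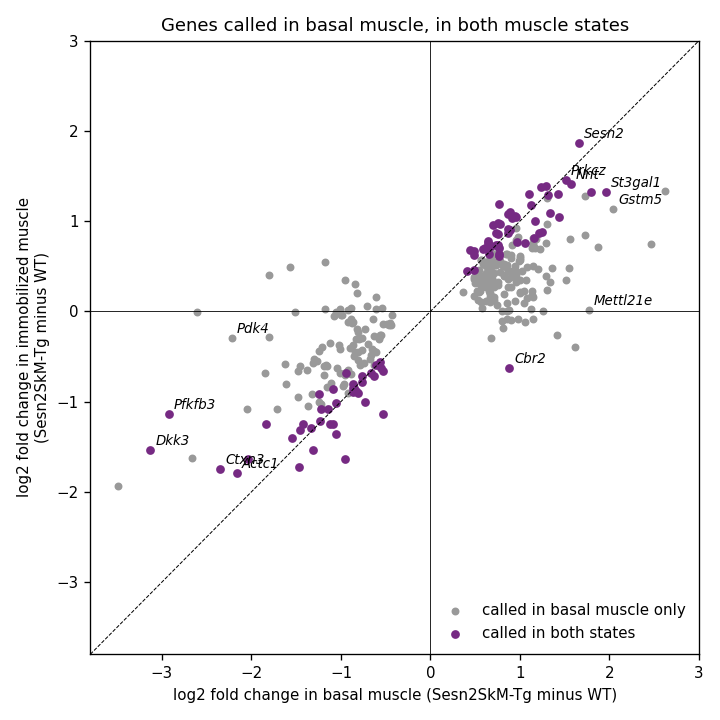
Log2 fold change between Sesn2SkM-Tg and WT muscle in the basal state (x axis) and after immobilization (y axis) for the 343 genes called in basal muscle, in purple where called in both states, with equality as a dashed line. Of these genes 317 lie in the quadrants of equal direction, and the rest do not. In both states 90 were called, and Cbr2 is the 1 gene among these 90 with opposite directions.

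Basal Sesn1SkM-Tg muscle was sequenced in the same set and is compared with the same WT libraries, so its values are given without a test. The genes that were low in Sesn2SkM-Tg muscle were nearer to WT there. Dkk3 had 18.4, 14.7, 14.6 and 12, Pfkfb3 had 309, 246, 146 and 209, and Pdk4 had 733, 574, 474 and 928. St3gal1, with 13.2, 13.4, 14.7 and 10.5, overlapped the basal WT libraries (10.4 to 13.3). Sesn2 had 2.89, 3.44, 2.84 and 3.92 there.

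The called genes were spread over the chromosomes. Of 13584 genes placed on GRCm38 chromosomes 2.50% were called, and the share per chromosome ran from 1.35% on X to 3.77% on chromosome 13, with 0 of 8 genes on Y. Windows of 10 Mb were searched for linked differences, that is at least 4 called of at least 10 tested genes at 5 times the overall share. Among 256 windows with at least 10 tested genes, 0 reached this share of 12.5%, and 0 did with windows of 5 Mb or windows shifted by 5 Mb. The highest share was on chromosome 2, 110000001 to 120000000, with 5 of 54 genes (9.26%), Actc1, A430105I19Rik, Chac1, Ino80 and Chp1. On chromosome 7, 110000001 to 120000000, Dkk3 and 3 others were called of 58 (6.90%), Mical2, Rassf10 and Gm4353. Leaving out 1 library gave 0 to 4 dense windows, 4 of them without WT replicate 2, each with 4 of 52 to 58 genes called where 1.3% of all placed genes were. Around Sesn2 itself 1 of 63 genes within 2 Mb was called, Slc30a2, a zinc transporter, which had 20.3, 39.6, 27.1 and 22.5 against 11.3, 10.9, 11 and 11.6 (1.18, adjusted p = 0.0031). Of the neighbours of other genes within 2 Mb, 0 of 9 were called around Nnt, 0 of 8 around St3gal1, 0 of 15 around Pfkfb3, 2 of 41 around Gstm5 (Kcnc4 and Gstm2) and 2 of 22 around Dkk3 (Mical2 and Rassf10). Around Pla2g4e, a cytosolic phospholipase gene just past the edge of the window with the highest share (1.23, adjusted p = 1.7e-04), which was singled out after its values were seen, 6 of 72 were called, Chp1, Chac1, Ino80, A430105I19Rik, Casc4 and Ganc. Where the transgenes are inserted is not given in the sources used here.

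**Figure D5:**
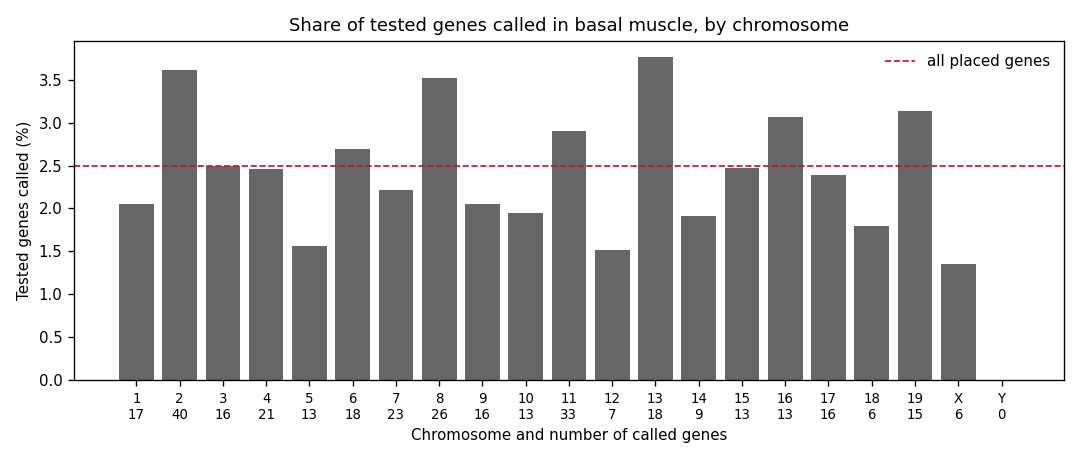
Percentage of tested genes called in basal muscle for each chromosome (bars, with the number of called genes under each) and over all placed genes (dashed line, 2.50%). Shares run from 0 on Y and 1.35% on X to 3.77% on chromosome 13.

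Promoters of some of the genes above are shown to set their sequence beside their values. They are RefSeq sequences of GRCm38.p6, 300 bases each from 250 before to 50 after the start, taken for the listed start nearest to the annotated gene start, and written 5′ to 3′ on the strand of the gene. Capitals mark matches on either strand to any of 8 motifs, CACGTG (E-box), TGACGTCA (CRE), TGACTCA (AP-1), GTAAACA (FoxO), AGAACA (a glucocorticoid half-site), CATTCC (M-CAT, the element that TEAD factors bind), CAGCTG (a myogenic E-box) and GGGCGG (GC box), none of which contains another.
Sesn2, chr4:132510407-132510706, minus strand: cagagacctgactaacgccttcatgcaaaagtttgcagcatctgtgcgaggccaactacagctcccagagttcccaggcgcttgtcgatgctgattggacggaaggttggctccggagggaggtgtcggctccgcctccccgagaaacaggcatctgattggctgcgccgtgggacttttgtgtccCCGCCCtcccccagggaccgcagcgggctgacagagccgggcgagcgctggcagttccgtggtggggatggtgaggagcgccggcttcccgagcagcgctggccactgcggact
Pfkfb3, chr2:11553880-11554179, minus strand: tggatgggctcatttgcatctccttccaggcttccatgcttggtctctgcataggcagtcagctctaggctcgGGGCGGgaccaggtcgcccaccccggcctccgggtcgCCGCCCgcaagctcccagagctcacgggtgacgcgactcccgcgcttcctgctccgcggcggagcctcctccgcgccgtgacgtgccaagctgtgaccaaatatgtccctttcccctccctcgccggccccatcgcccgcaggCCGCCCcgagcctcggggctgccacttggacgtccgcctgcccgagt
Pdk4, chr6:5496229-5496528, minus strand: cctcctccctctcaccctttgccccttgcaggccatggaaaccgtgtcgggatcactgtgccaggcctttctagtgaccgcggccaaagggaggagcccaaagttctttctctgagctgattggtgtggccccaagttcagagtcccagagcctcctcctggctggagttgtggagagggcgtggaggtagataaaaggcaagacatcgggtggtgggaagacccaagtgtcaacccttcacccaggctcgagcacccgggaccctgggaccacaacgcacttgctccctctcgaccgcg
Gstm5, chr3:107895604-107895903, plus strand: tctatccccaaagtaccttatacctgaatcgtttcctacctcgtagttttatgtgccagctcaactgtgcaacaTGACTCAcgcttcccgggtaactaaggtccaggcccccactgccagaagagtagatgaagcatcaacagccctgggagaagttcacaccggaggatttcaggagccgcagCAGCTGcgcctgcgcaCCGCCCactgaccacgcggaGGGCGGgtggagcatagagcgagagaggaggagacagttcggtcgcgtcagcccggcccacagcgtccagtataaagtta
Per1, chr11:69098699-69098998, plus strand: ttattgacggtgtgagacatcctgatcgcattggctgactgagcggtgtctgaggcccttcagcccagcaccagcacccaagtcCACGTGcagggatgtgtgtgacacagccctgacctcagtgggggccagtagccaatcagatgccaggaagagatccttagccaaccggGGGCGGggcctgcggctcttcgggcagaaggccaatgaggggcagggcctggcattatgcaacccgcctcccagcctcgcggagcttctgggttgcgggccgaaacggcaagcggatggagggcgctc
Mybph, chr1:134193198-134193497, plus strand: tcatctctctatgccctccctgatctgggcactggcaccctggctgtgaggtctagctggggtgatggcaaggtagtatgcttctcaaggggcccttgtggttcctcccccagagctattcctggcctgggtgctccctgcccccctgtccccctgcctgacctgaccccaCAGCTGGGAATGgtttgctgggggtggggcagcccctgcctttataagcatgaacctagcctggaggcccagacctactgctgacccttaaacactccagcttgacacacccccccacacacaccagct
Thbs4, chr13:92794769-92795068, minus strand: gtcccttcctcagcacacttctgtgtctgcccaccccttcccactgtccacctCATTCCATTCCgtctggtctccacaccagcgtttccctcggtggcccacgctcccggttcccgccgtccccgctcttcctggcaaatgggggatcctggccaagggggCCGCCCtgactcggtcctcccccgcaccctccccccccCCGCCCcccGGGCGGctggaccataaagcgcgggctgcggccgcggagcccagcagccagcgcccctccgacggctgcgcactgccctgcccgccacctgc

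The strongly lowered Pfkfb3 and Pdk4 were unlike in these windows, with 3 GC boxes in the former and none of the motifs in the latter. The window of Per1 held 1 E-box and 1 GC box, and that of Gstm5 1 AP-1, 1 myogenic E-box and 2 GC boxes. That of Mybph held 1 M-CAT element and 1 myogenic E-box. That of Thbs4 held 2 M-CAT elements, which overlap, and 3 GC boxes. A promoter was found for 9873 of the genes tested, for 134 of the 206 called higher and for 91 of the 137 called lower. M-CAT was in 24 of the 91 promoters of lower genes (26.4%), against 12.7% of the higher ones and 12.1% of all, and the half-site AGAACA in 20.9% of the lower, 12.7% of the higher and 12.2% of all. The E-box CACGTG was in 4.40%, 8.96% and 10.2%, the CRE in 1.10%, 4.48% and 3.25%, AP-1 in 2.20%, 3.73% and 3.51%, FoxO in 4.40%, 1.49% and 2.41%, the myogenic E-box in 19.8%, 19.4% and 15%, and the GC box in 57.1%, 64.2% and 63.9%. The median GC content of these windows was 61.0%, 60.7% and 61.0%. These shares are descriptions of letters in a short window and were not tested. Of the lower genes with M-CAT, Thbs4, Slc43a1, Ankrd23, Pla2g5 and Calm4 are stable calls, and the others, Mybph among them, are not.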

How the data were processed

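RNA of TA muscle was sequenced by the authors on an Illumina HiSeq 2500. They trimmed reads with cutadapt 1.7.1, assigned them to the mouse transcriptome (GRCm38) with RSEM 1.2.20 and normalized them with limma, and edgeR is also named in the submitters' processing notes. The deposited signal values are these normalized counts on a linear scale, 13809 genes in 42 libraries, and the filter that chose these genes is not given in the sources used here. Whole reads could not be recovered from them, so count tests were not used and counting error is not given. In R 4.3.3 with limma 3.58.1, 13705 genes were kept, those that reached 1 in any of the 22 libraries of set 1. A coefficient for each of 6 groups was fitted to log2(value + 1), which understates the change of low genes, eBayes used a trend, and two-sided p-values were corrected after Benjamini and Hochberg. Calls required a log2 fold change of 0.25 or more in size and an adjusted p below 0.05. The script was tested on simulated data.

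Groups were taken from the labels, which do not say that replicates are separate mice, so p-values measure the spread between these libraries. Replicate numbers were not taken as pairs, since the deviations of equally numbered libraries correlated at 0.14, -0.45, 0.07 and -0.40. The text names the sestrins, Gstm5, Dkk3, Pfkfb3 and Mybph, the 12 largest called changes in each direction, up to 4 called members of each of 32 lists and genes marked as singled out after their values were seen. The comparison, these genes and the lists were chosen with earlier results of these data known. Positions, exon bases and GC content come from GENCODE M21 (GRCm38), which placed 99.4% of the tested genes. Alternatives covered filters, pseudocounts, scaling, eBayes settings, groups in the model, the replicate block, thresholds and each library left out. The fit without both libraries that stand apart and the correction for GC content and exon length (splines with 5 degrees of freedom) were chosen after seeing the data. Some called genes are not reported here.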

Additional observations from a re-analysis of the deposited data

Results flagged for a closer look

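In the basal groups of the sestrins and of the genes named for their size, 1 of 4 libraries lay apart by Dixon's criterion in 9 of 52 groups examined, and chance gives this in about 1 of 20. Sesn1 was low in Sesn2SkM-Tg replicate 2 (7.0 normalized counts), and Gm10231 was high there (18.8). Vash2 was high in Sesn2SkM-Tg replicate 3 (21), Otog was low in Sesn2SkM-Tg replicate 1 (5.56), and Rpl30-ps9 was high in Sesn2SkM-Tg replicate 4 (2.72). Among the WT libraries, Dkk3 was low in replicate 4 (8.47), Pdk4 was low in replicate 2 (707), Rasd2 was low in replicate 3 (24.5) and Scd1 was high in replicate 1 (106).

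The genotype difference of Cbr2, a carbonyl reductase, differed between the muscle states in the test over all genes, but not in every alternative. In basal muscle it had 31.3, 39.0, 37.5 and 33.7 normalized counts in Sesn2SkM-Tg and 25.5, 20.8, 14.2 and 16.0 in WT libraries, and in immobilized muscle 12.1, 12, 12.2 and 14.7 against 21.3, 18.2 and 21.6. The log2 fold change was 0.88 in the basal and -0.63 in the immobilized state, a difference of -1.52 (standard error 0.23, limma adjusted p = 0.024 with Benjamini-Hochberg adjustment). The basal difference missed the threshold after the correction for GC content and length (adjusted p = 0.081). The test of the difference itself kept its call in 10 of 15 fits without 1 library and lost it without Sesn2SkM-Tg basal replicates 2 (adjusted p = 0.071) and 3 (0.088), WT basal replicate 3 (0.065), Sesn2SkM-Tg immobilized replicate 3 (0.082) and WT immobilized replicate 3 (0.10). It was also lost with the replicate block (0.064), with the compared groups alone (0.051), with both sets in the fit (0.055), without both libraries that stand apart (0.051) and after the correction for GC content and length (0.074), with differences between -1.52 and -1.40 in these last 5 fits.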

How the results depend on the processing

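The 343 calls in basal muscle (206 higher, 137 lower) became 103 (51 and 52) when the model held the compared groups alone, 101 of them shared with the 343, 625 (395 and 230) with both sets in the fit and 125 (62 and 63) at a log2 fold change of 1 or more in size. Median centring left 300, 150 of them higher. Without both libraries that stand apart 314 were higher. Leaving out 1 library gave 156 to 1027 calls, 87 to 733 higher and 69 to 294 lower. For members of the lists, 38 called, the counts were 10 with the compared groups alone, 70 with both sets, 21 at the larger fold change and 17 to 122 without 1 library. The 403 calls in immobilized muscle became 233, 778 and 142 under the same 3 settings, 229 with the replicate block and 110 to 314 without 1 library. The test of the difference between the states, with 1 call, gave 2 without the eBayes trend, 2 with both sets, 3 after the correction for GC content and length, 0 without both libraries that stand apart, 0 with the replicate block and 0 to 5 without 1 library. Cbr2 was not among the calls with both sets, with the compared groups alone or after that correction. Dense windows numbered 0 to 4 without 1 library. Sesn2 kept its call throughout, between 1.57 and 1.87 without 1 library. With the replicate number as a block 288 genes were called in basal muscle, and Sesn2 had a log2 fold change of 1.66. No named gene reversed direction under the alternatives run. Of the named genes, 29 lost their call with the compared groups alone, 15 without both libraries that stand apart, 9 with the replicate block and 5 after the correction for GC content and length. A fit with fewer libraries or groups has fewer residual degrees of freedom, and other causes of these changes were not tested. The depth in reads is unknown, so it cannot be said which low genes were limited by it, and 4 libraries per group with 2 that stood apart limit the count of calls.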
